A study of Homo sapiens with 24 samples.

Results

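A set of 5 genes of the plasminogen activation system were followed across 24 expression arrays: PLAU and PLAT, which encode the plasminogen activators, PLAUR, the urokinase receptor, and SERPINB2 and SERPINE2, inhibitors of both activators. They are 5 of the 18632 genes tested, and each was found once in the table by its symbol. They were chosen by name and role, with results of these arrays already known, in particular the rise of SERPINB2 in TPC-1 cells at 72 h. Every comparison that uses the TPC-1 wells at 72 h is therefore a description for these 5 genes and carries no p.

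The activators urokinase and tissue-type plasminogen activator cut the circulating zymogen plasminogen to plasmin, a broad protease that dissolves fibrin and opens the extracellular matrix. The urokinase receptor holds urokinase at the cell surface, where plasminogen is also bound, and serpins end the reaction by trapping the activators. In thyroid and other carcinomas the system is known for its part in matrix breakdown and invasion, and SERPINB2 and PLAUR are well-known targets of inflammatory and growth signals.

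The groups were TPC-1 cells with siCOPZ1 or siNT, and Nthy-ori 3-1 cells with siCOPZ1 or siNT, each sampled 48 h and 72 h after transfection, with 3 wells in each of the 8 groups. TPC-1 cells derive from a papillary thyroid carcinoma and were kept in DMEM; Nthy-ori 3-1 is an SV40-immortalised line of normal thyroid follicular cells and was kept in RPMI medium, so line and medium cannot be told apart. siCOPZ1 is an esiRNA, a pool of duplexes against the zeta-1 subunit of the COPI vesicle coat, whereas siNT is 1 synthetic non-targeting duplex; both were used at 20 nM with a lipid reagent, and depletion and kind of reagent cannot be told apart. The labels do not say that wells came from separate cultures, so each p reflects well-to-well spread alone, which may be technical.

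All values are log2 expression values, 1 per gene and array, normalised between arrays. On this scale levels of one gene can be compared between wells, whereas levels of different genes cannot. A gene was called at a limma p below 0.05 after Benjamini-Hochberg adjustment over all genes tested. COPZ1 itself fell in all 4 comparisons, to 10.5% of siNT in TPC-1 at 48 h and 22.2% at 72 h, and to 25.8% and 33.6% in Nthy-ori 3-1, with limma adjusted p between 1.03e-07 and 0.0178. The call in Nthy-ori 3-1 at 72 h was lost without siNT well 1, 2 or 3 or siCOPZ1 well 2 or 3 (adjusted p between 0.0928 and 0.168), with the replicate number as a block (0.0554) and with only the 12 arrays of the line (0.217), and both Nthy-ori 3-1 calls were lost when only the 6 arrays compared were fitted (0.734 at 48 h and 0.465 at 72 h). PAX8 (12.3 in TPC-1 and 10.4 in Nthy-ori 3-1) and FOXE1 (7.81 and 7.60) stood well above 5.51, the level under which a gene counts as dim here (the lower 33.3% of all genes by mean level). The thyroid genes TSHR, SLC5A5 and DIO1 were dim in both lines.

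PLAU (ENSG00000122861) encodes urokinase. In TPC-1 at 48 h its levels were 12.49, 12.11 and 12.04 in siCOPZ1 wells, against 12.07, 11.95 and 11.74 in siNT wells, and at 72 h they were 12.09, 12.37 and 12.33 in siCOPZ1 wells, against 11.88, 11.97 and 11.86 in siNT wells. In Nthy-ori 3-1 they were 10.10, 9.79 and 10.06 with siCOPZ1 at 48 h, against 10.01, 10.02 and 10.01 with siNT, and 10.00, 10.15 and 9.77 with siCOPZ1 at 72 h, against 10.13, 9.87 and 9.95 with siNT. Every TPC-1 well therefore stood above every Nthy-ori 3-1 well, and within a line the siCOPZ1 and siNT wells overlapped except in TPC-1 at 72 h. With siNT at 48 h the line difference was 1.91 ± 0.14 (log2, SE, 3 wells per group), or 3.75-fold higher in TPC-1 (limma adjusted p = 1.53e-09). In that comparison 27.5% of all genes were called and 17.1% were higher without overlap, and PLAU and PLAT were the 2 of the 5 genes called.

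PLAT (ENSG00000104368) encodes tissue-type plasminogen activator, the main activator in fibrin clots. Its levels in TPC-1 at 48 h were 8.17, 7.47 and 7.44 with siCOPZ1, against 7.63, 7.06 and 7.29 with siNT, and at 72 h 8.26, 8.19 and 8.00 with siCOPZ1, against 7.48, 7.43 and 7.47 with siNT. In Nthy-ori 3-1 they were 9.05, 9.31 and 9.29 with siCOPZ1 at 48 h, against 9.07, 8.93 and 9.11 with siNT, and 9.40, 9.45 and 9.49 with siCOPZ1 at 72 h, against 9.43, 9.22 and 9.35 with siNT. The order of the lines was the opposite of that for PLAU: every TPC-1 well lay below every Nthy-ori 3-1 well. With siNT at 48 h the TPC-1 level was 30.6% of that in Nthy-ori 3-1, a log2 difference of -1.71 ± 0.17 (limma adjusted p = 9.72e-08), and 20.3% of all genes were lower there without overlap. The siCOPZ1 wells of TPC-1 at 72 h were above all siNT wells of that line and time, yet remained below every Nthy-ori 3-1 well.

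PLAUR (ENSG00000011422) encodes the urokinase receptor, which is tied to the outer membrane by a lipid anchor. In TPC-1 at 48 h its levels were 10.78, 10.86 and 10.45 with siCOPZ1, against 9.97, 10.07 and 9.93 with siNT. At 72 h they were 11.29, 11.43 and 11.39 with siCOPZ1, against 9.92, 9.72 and 9.67 with siNT. Depleted TPC-1 wells were higher than their controls at both times without overlap, and the 72 h depleted wells were above all 48 h depleted wells, as in 10.4% of all genes.

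In Nthy-ori 3-1 the PLAUR levels were 9.09, 9.64 and 9.49 with siCOPZ1 at 48 h, against 9.28, 9.97 and 9.52 with siNT, and 8.76, 8.92 and 8.71 with siCOPZ1 at 72 h, against 8.72, 9.24 and 8.46 with siNT. Depleted and control wells overlapped at both times in this line. Over the 8 groups, the means ran from 11.37 in depleted TPC-1 at 72 h through 10.70 in depleted TPC-1 at 48 h and 9.99 in TPC-1 with siNT at 48 h, each apart from the next without overlap, down to 8.80 in depleted Nthy-ori 3-1 at 72 h. From the fourth group on, neighbours in that order overlapped.

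SERPINB2 (ENSG00000197632) encodes plasminogen activator inhibitor type 2, a largely intracellular serpin of clade B that can also be secreted. In TPC-1 at 48 h its levels were 5.82, 5.75 and 3.93 with siCOPZ1, against 5.56, 4.37 and 4.40 with siNT. At 72 h they were 10.76, 11.83 and 10.99 with siCOPZ1, against 4.97, 4.29 and 4.50 with siNT. In Nthy-ori 3-1 they were 6.04, 5.50 and 6.03 with siCOPZ1 at 48 h, against 4.86, 6.22 and 4.89 with siNT, and 4.28, 5.19 and 4.28 with siCOPZ1 at 72 h, against 5.65, 3.91 and 5.10 with siNT. Only the 3 depleted TPC-1 wells at 72 h were high; all 21 other wells lay at or below 6.22, near or under the limit for dim genes, and the mean of the next group was 5.34 lower. Arrays of whole wells cannot tell more expressing cells from more RNA per cell. The levels of those 21 wells spread by up to 1.07 within a group (SD over 3 wells), and every neighbouring pair among the other 7 groups overlapped.

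SERPINE2 (ENSG00000135919) encodes protease nexin-1, a serpin that inhibits thrombin as well as both activators. In TPC-1 its levels were 7.43, 7.80 and 7.47 with siCOPZ1 at 48 h, against 7.22, 7.59 and 7.84 with siNT, and 7.84, 8.19 and 8.07 with siCOPZ1 at 72 h, against 7.40, 7.55 and 7.55 with siNT. In Nthy-ori 3-1 they were 6.23, 7.34 and 7.45 with siCOPZ1 at 48 h, against 7.27, 7.01 and 6.73 with siNT, and 7.09, 7.14 and 7.02 with siCOPZ1 at 72 h, against 6.83, 6.29 and 5.93 with siNT. Depleted wells were above control wells without overlap at 72 h in both lines and overlapped them at 48 h in both. Levels were mostly higher in TPC-1, but the 2 lines overlapped at 48 h with siCOPZ1 and with siNT.

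**Figure D1:**
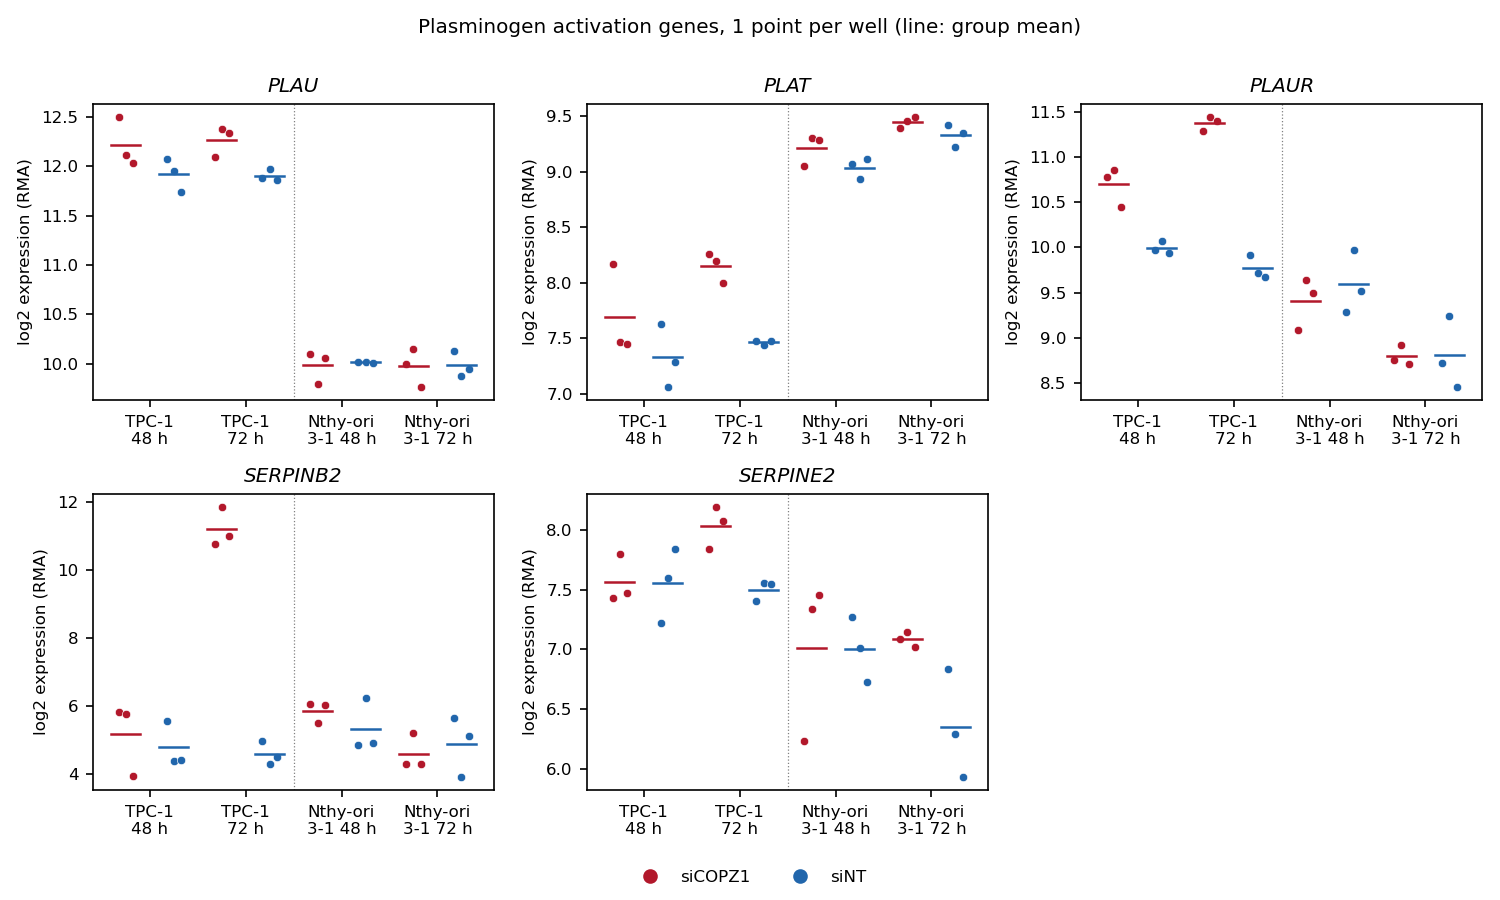
Log2 expression of the 5 genes in each of the 24 wells; red points are siCOPZ1 wells, blue points siNT wells, horizontal bars group means of 3 wells, and the dotted line separates TPC-1 (left) from Nthy-ori 3-1 (right). Each panel has its own scale. SERPINB2 stands high in the 3 depleted TPC-1 wells at 72 h alone, while PLAU and PLAT separate the lines in opposite directions.

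In TPC-1 at 72 h all 5 genes were higher in the depleted than in the control wells. SERPINB2 differed by 6.61 ± 0.51 (log2, SE, 3 wells per group), a 97.8-fold difference in the deposited values. Its control wells were dim, so that fold rests on a level near background. Set against the limit for dim genes in place of the control level, the difference was 5.68 or 51.4-fold. That limit comes from the levels of all genes and is not a measured background for SERPINB2. The second fold is therefore no estimate of the change. PLAUR differed by 1.61 ± 0.19 or 3.04-fold (rank 133 of the 18632 genes by size of rise), PLAT with 0.69 ± 0.17 or 1.61-fold (rank 1043), SERPINE2 with 0.53 ± 0.26 or 1.45-fold (rank 1704) and PLAU with 0.36 ± 0.14 or 1.28-fold (rank 2976). The receptor and SERPINB2 thus differed by over 3-fold and the activators by under 2-fold. In all 5 the depleted wells stood above the control wells without overlap, as they did in 14% of all genes, and 7.03% of all genes were called higher. The genes were chosen with this comparison known, so nothing is read from these counts.

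At 48 h in TPC-1 none of the 5 genes was called in limma, where 0.166% of all genes were, 31 in number. At an unadjusted p below 0.05, 1685 genes passed. PLAUR came nearest, with a difference of 0.70 ± 0.19 or 1.63-fold (95% interval 0.31 to 1.10, limma adjusted p = 0.170). Its wells were the only ones of the 5 genes not to overlap, as in 6.91% of all genes in the higher direction. By an exact permutation test (two-sided) p was 0.1, and 3 wells against 3 cannot give less.

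The other differences at 48 h in TPC-1 were 0.37 for PLAT (limma adjusted p = 0.522), 0.29 for PLAU (0.551), 0.01 for SERPINE2 and 0.39 for SERPINB2 (0.877). For SERPINB2 the 95% interval ran from -0.68 to 1.46, so a moderate change at this time was not detectable, while a change of the size seen at 72 h lay outside it. From 48 h to 72 h the siCOPZ1 effect on PLAUR grew by 0.90 on the log2 scale, given as a description.

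In Nthy-ori 3-1 none of the 5 genes was called at 48 h or at 72 h. Only 0.00537% of all genes, COPZ1 alone, were called at each time, and 906 and 574 genes passed an unadjusted p below 0.05. At 48 h the differences were 0.53 for SERPINB2 (limma adjusted p = 0.989), 0.18 for PLAT, 0.00 for SERPINE2, -0.03 for PLAU and -0.18 for PLAUR. At 72 h SERPINE2 differed by 0.73 ± 0.26 (limma adjusted p = 1.00), its wells not overlapping, as in 5.18% of all genes in the higher direction. The remaining differences at 72 h lay between -0.30 for SERPINB2 and 0.12 for PLAT.

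The effects in the 2 lines can be set against each other directly at 48 h. For PLAUR the effect in TPC-1 exceeded that in Nthy-ori 3-1 by 0.88 ± 0.27 (95% interval 0.32 to 1.45), but this did not pass limma's adjustment over all genes (adjusted p = 1.00). No gene at all was called in this comparison (0%), and 615 passed an unadjusted p below 0.05. At 72 h the line difference was 6.92 for SERPINB2, 1.62 for PLAUR, 0.57 for PLAT, 0.37 for PLAU and -0.20 for SERPINE2, given as descriptions. SERPINE2, at 0.53 in TPC-1 and 0.73 in Nthy-ori 3-1, was thus the one gene with the smaller value in TPC-1.

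**Figure D2:**
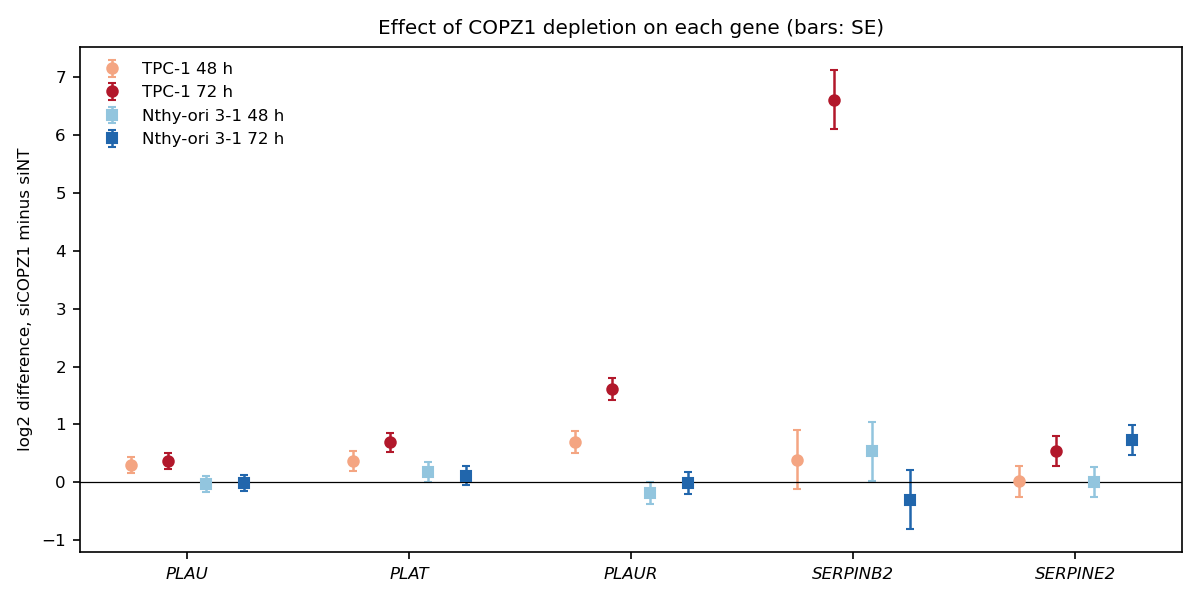
Log2 difference of siCOPZ1 minus siNT for each gene in each line and time; points are differences of group means over 3 wells each and bars their SE from the limma fit. SERPINB2 at 72 h in TPC-1 lies at 6.61, and PLAUR lies at 0.70 and 1.61 in TPC-1 and at -0.18 and -0.01 in Nthy-ori 3-1 (48 h, then 72 h).

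Control wells were also compared between the times. In Nthy-ori 3-1 with siNT, PLAUR at 72 h was lower than at 48 h without overlap, by a log2 difference of -0.78 ± 0.19, which was not called (limma adjusted p = 0.174, and 0.0365 with the replicate number as a block or without siNT well 2 at 72 h). No gene was called in that comparison (0%), 1548 passed an unadjusted p below 0.05, and non-overlap in the lower direction held for 9.3% of all genes. SERPINE2 differed by -0.65 (limma adjusted p = 0.489). In the line comparison with siNT at 48 h, the 3 genes not called were SERPINE2 at 0.55 (limma adjusted p = 0.134), PLAUR at 0.40 (0.135) and SERPINB2 at -0.55 (0.500). The PLAUR difference was 0.59 and called without Nthy-ori 3-1 siNT well 2 (limma adjusted p = 0.0348).

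The rest of the pathway was followed through a list of 32 other genes, all found in the table. In TPC-1 at 72 h, where 14.4% of all genes were called in limma (7.03% higher and 7.42% lower), 1 rose, 2 fell and 29 were not called, with a median log2 difference of -0.00 as over all genes. Among the 6 further inhibitors listed none was called, nor was any of 7 genes for the zymogen and proteases that activate it or urokinase. All these inhibitors but SERPINF2, and also PLG and KLKB1, were dim in depleted and control wells, so a change in them could be missed. Of 4 genes for plasminogen binding at the cell surface 1 rose, and of 15 genes for clearance of the complexes and partners of the urokinase receptor 2 fell. None of the 32 was called in TPC-1 at 48 h, or in Nthy-ori 3-1 at either time, with medians of 0.0080, -0.03 and -0.12.

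PLGRKT encodes a membrane receptor for plasminogen. In TPC-1 at 72 h its levels were 7.38, 6.72 and 7.39 with siCOPZ1, against 6.59, 6.66 and 6.21 with siNT, a difference of 0.68 ± 0.18 (limma adjusted p = 0.0136). The depleted wells lay above the controls, well 2 only just. The call was lost without siNT well 3 or siCOPZ1 well 1 or 3 (limma adjusted p between 0.0661 and 0.0856). It was also lost without the arrays numbered 1 (limma adjusted p = 0.138), with only the 6 arrays compared (0.127) and with the 12 arrays of the line (0.0637).

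ITGB3, the beta-3 integrin chain that pairs with the alpha-V chain to bind vitronectin, fell in TPC-1 at 72 h. Its levels were 10.38, 10.59 and 10.76 with siCOPZ1, against 11.94, 11.82 and 11.91 with siNT, far apart without overlap. The depleted level was 40.3% of the control level, a log2 difference of -1.31 ± 0.20 (limma adjusted p = 0.000124). FPR1, a formyl peptide receptor that signals together with the urokinase receptor, had 5.75, 4.57 and 4.73 with siCOPZ1, against 6.80, 6.03 and 6.16 with siNT. Its difference was -1.31 ± 0.36 (limma adjusted p = 0.0173), and the depleted mean of 5.02 was dim. The call was lost without siNT well 1 or siCOPZ1 well 2 or 3 (limma adjusted p between 0.0752 and 0.0899). It was also lost with only the 6 arrays compared (limma adjusted p = 0.0645) and with the 12 arrays of the line (0.0705).

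**Figure D3:**
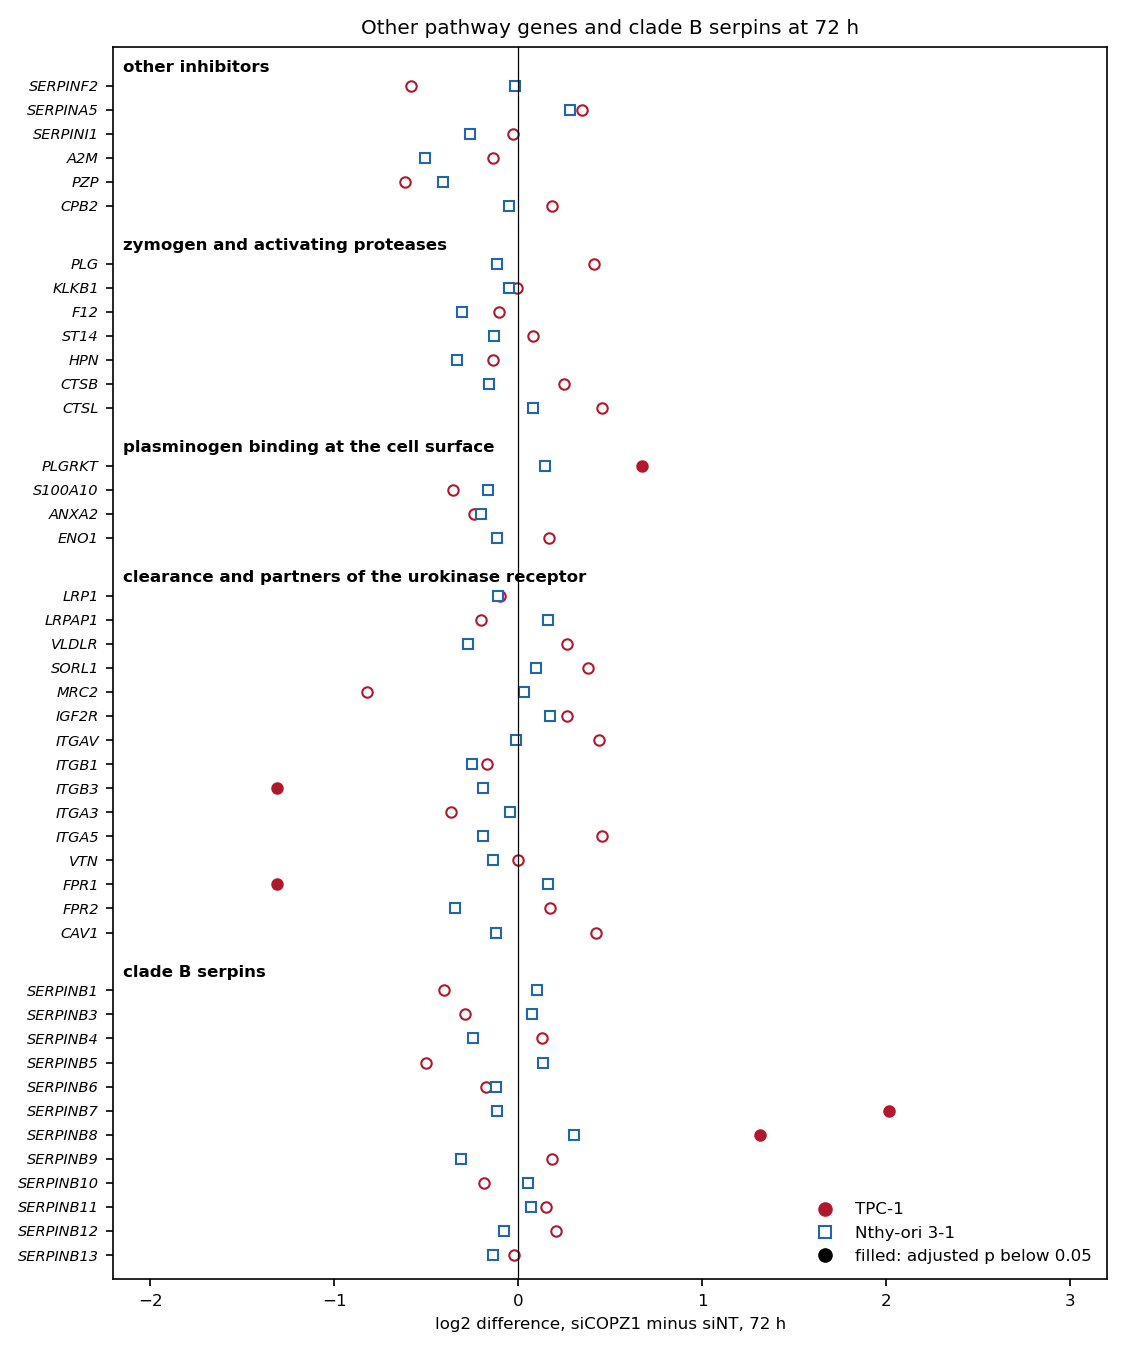
Log2 difference of siCOPZ1 minus siNT at 72 h for 32 other pathway genes and 12 other clade B serpins, grouped by role; red circles are TPC-1, blue squares Nthy-ori 3-1, and filled symbols were called in limma. In TPC-1, 3 genes rise (PLGRKT, SERPINB7, SERPINB8) and 2 fall (ITGB3, FPR1), whereas no Nthy-ori 3-1 symbol is filled.

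SERPINB2 lies in a cluster of clade B serpin genes on chromosome 18, and 12 other genes of the clade were all found. In the RefSeq gene table (GRCh38.p14) SERPINB7 is its neighbour on one side, and SERPINB10, HMSD and SERPINB8 follow in that order on the other. In TPC-1 at 72 h, SERPINB7 and SERPINB8 rose and the other 10 were not called, 2 of 12 beside 7.03% of all genes called higher there. Among those 10, only SERPINB1 and SERPINB6 stood above the limit for dim genes in these wells. None of the 12 was called in TPC-1 at 48 h or in Nthy-ori 3-1.

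SERPINB7, known from skin and kidney mesangial cells, had 7.66, 6.54 and 6.28 with siCOPZ1 in TPC-1 at 72 h, against 5.70, 4.48 and 4.27 with siNT. It rose by 2.01 ± 0.45, or 4.04-fold (limma adjusted p = 0.00397), against control wells that were dim on average. At 48 h it had 6.50, 6.94 and 6.35 with siCOPZ1, against 5.07, 6.46 and 5.79 with siNT, and the 2 groups overlapped. From 48 h to 72 h it differed by 0.24 in depleted TPC-1 wells and by -0.96 in control wells, neither of them called (limma adjusted p = 0.818 and 0.273). SERPINB8, an inhibitor of the protease furin, had 7.73, 8.38 and 8.19 with siCOPZ1, against 6.99, 6.92 and 6.44 with siNT. It rose by 1.32 ± 0.26, or 2.49-fold (limma adjusted p = 0.00163). Both sets of depleted wells lay above all controls, and both rises were smaller than that of SERPINB2. SERPINB10, which lies between SERPINB2 and SERPINB8, differed by -0.19 and was not called (limma adjusted p = 0.557). Its means of 3.25 in depleted and 3.44 in control wells were dim. It therefore cannot show whether the genes of the cluster moved together. In the line difference at 72 h, where 4.02% of all genes were called, the values of SERPINB7 (2.13, limma adjusted p = 0.0664) and SERPINB8 (1.01, adjusted p = 0.145) were not. That of SERPINB7 was called with the replicate number as a block (limma adjusted p = 0.00330), with array weights (0.0420), without the arrays numbered 1 (0.0124) and without TPC-1 siNT well 1 at 72 h (0.0212).

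**Figure D4:**
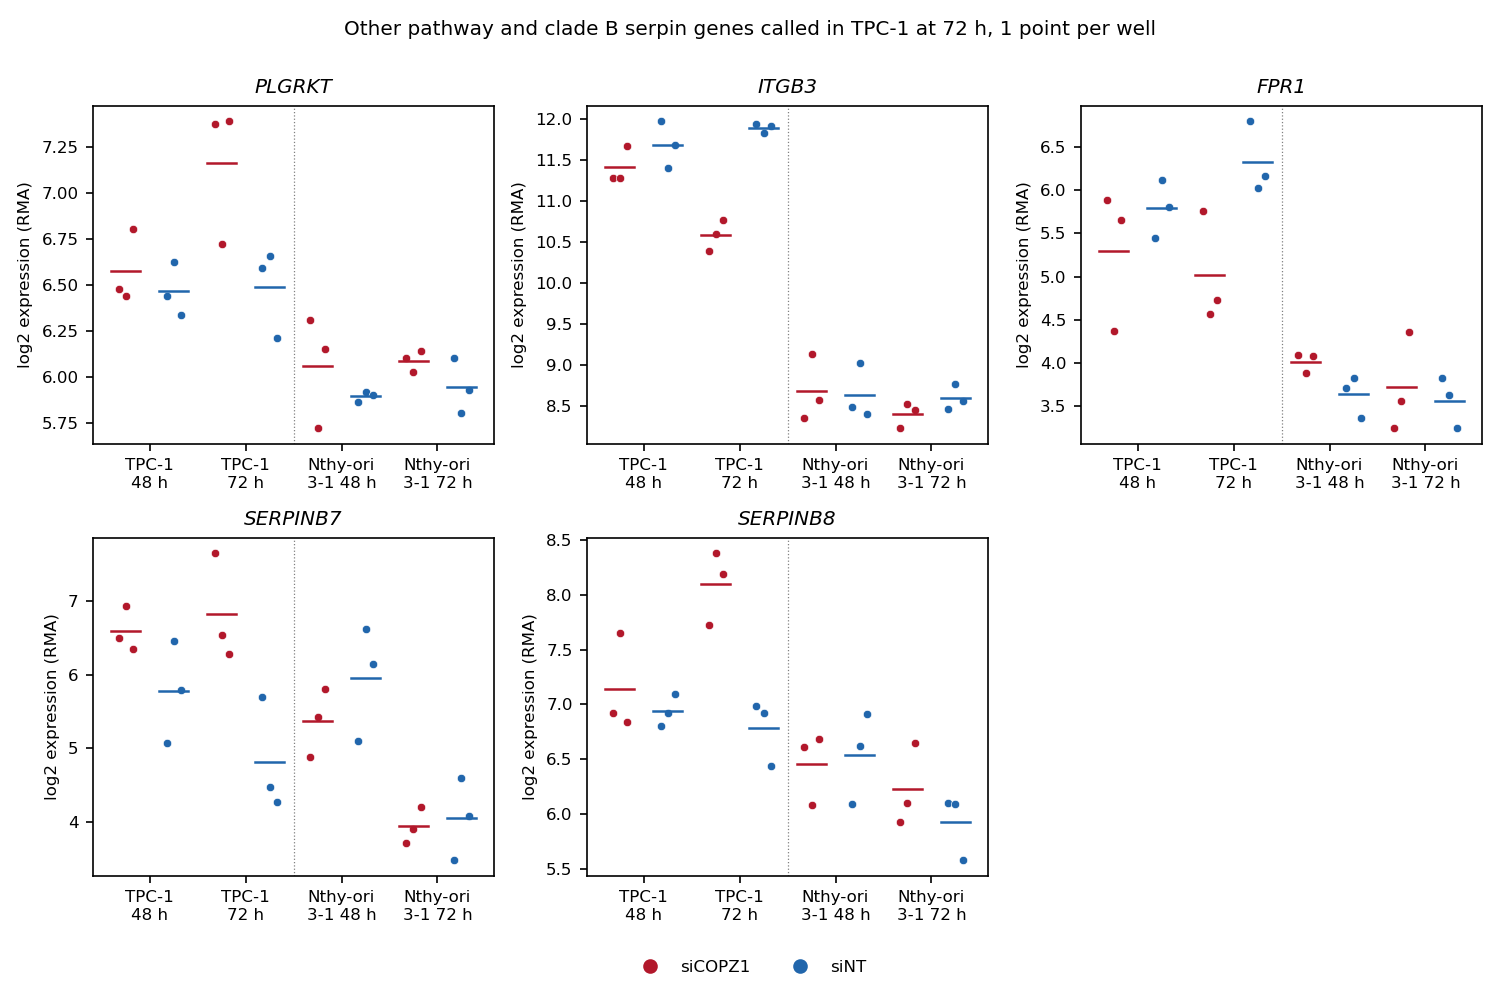
Log2 expression in each of the 24 wells of 5 other genes called in TPC-1 at 72 h; red points are siCOPZ1 wells, blue points siNT wells, bars group means of 3 wells, and each panel has its own scale. The ITGB3 wells of TPC-1 at 72 h lie far apart by siRNA, and both SERPINB7 and SERPINB8 are higher in the depleted wells there.

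The promoters of SERPINB2 and PLAUR, the pair of the 5 genes that differed most, and of the neighbour SERPINB8, chosen after its values were seen, are shown because these genes were higher together in depleted TPC-1 at 72 h. The neighbour SERPINB7 was higher there too, and its windows are described below but not printed. Each line is the stretch of 250 bases before the transcript start in RefSeq, assembly GRCh38.p14, read 5′ to 3′ on the strand of the gene. Capitals mark matches to the AP-1 motif TGANTCA or the TATA box TATAAA, each searched on both strands.
SERPINB2, chr18:63887455-63887704, plus strand: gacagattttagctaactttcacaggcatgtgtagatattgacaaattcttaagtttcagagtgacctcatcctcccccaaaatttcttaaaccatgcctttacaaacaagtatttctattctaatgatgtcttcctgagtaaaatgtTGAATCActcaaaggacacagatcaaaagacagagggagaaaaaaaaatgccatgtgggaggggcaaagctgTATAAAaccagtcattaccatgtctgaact
PLAUR, chr19:43670170-43670419, minus strand: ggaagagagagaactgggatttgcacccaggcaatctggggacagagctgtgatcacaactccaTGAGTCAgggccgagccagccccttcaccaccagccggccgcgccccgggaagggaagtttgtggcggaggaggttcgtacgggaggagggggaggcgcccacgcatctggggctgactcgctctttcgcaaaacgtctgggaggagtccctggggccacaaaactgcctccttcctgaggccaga
SERPINB8, chr18:63969831-63970080, plus strand: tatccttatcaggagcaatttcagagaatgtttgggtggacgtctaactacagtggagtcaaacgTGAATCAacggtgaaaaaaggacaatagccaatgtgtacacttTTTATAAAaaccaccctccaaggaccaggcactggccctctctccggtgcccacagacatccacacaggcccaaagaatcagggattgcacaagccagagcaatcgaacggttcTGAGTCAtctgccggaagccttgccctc

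The AP-1 letters occurred once in the SERPINB2 window, 102 bases before the start, once in the PLAUR window, 186 bases before it, and at 2 places in the SERPINB8 window, 185 and 28 bases before it. The same letters occurred in 6.573% of 35116 windows of this length. SERPINB2 also held TATAAA 30 bases before its start, a motif found in 10.72% of windows, and in SERPINB8 an overlapping pair of matches on opposite strands was found. Neither the cyclic AMP response core TGACG (21.22% of windows) nor the NF-kB letters GGNNNTTCC (17.12%) occurred in the windows of SERPINB2, PLAUR, PLAU or SERPINE2. The windows of PLAU and SERPINE2, 2 for each gene, also held no AP-1 letters. Of 3 windows of SERPINB7, 1 held no AP-1 letters and 1 match to the NF-kB letters, another held 2 AP-1 matches, and the last held 2 AP-1 and 2 TATAAA matches. The promoter of PLAT was not analysed here. A match is a run of letters and not evidence of binding, and a window without one says nothing about more distant sites.

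Some genes followed the 5 genes closely over the arrays. The following are Pearson correlations over all 24 arrays or over the 12 TPC-1 arrays, given as descriptions. They pool wells of different groups, so differences between groups enter them, and they do not measure variation among wells of one group. For SERPINB2 over 24 arrays the 5 most alike were the interleukin-36 gene IL36B (0.948), the chemokine gene CCL20 (0.927), the MAX partner gene MXD1 (0.925), the receptor gene GPR84 (0.916) and the channel gene TRPV3 (0.914). Over the 12 TPC-1 arrays they were ZC3H12C (0.975), PANX1 (0.974), IL36B (0.974), GFPT2 (0.970) and LAMA1 (0.968), so IL36B stood in both lists.

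For PLAUR the most alike over 24 arrays were PDCD1LG2 (0.974), NEDD4L (0.964) and SPOCD1 (0.959), and over the 12 TPC-1 arrays the collagenase gene MMP1 (0.991), the golgin gene GOLGA4 (0.989) and the survival gene BCL2A1 (0.984). For PLAU they were EREG (0.988) and LPXN (0.987), and in TPC-1 EPHB3 (0.956), WDR81 (0.925) and WDFY2 (0.917). For PLAT they were NCR3LG1 (0.979), RMND5B (0.970) and GATAD1 (0.969), and in TPC-1 HIVEP1 (0.950), HIVEP2 (0.949) and STK10 (0.948). For SERPINE2 they were TNIP2 (0.860), HMGA2 (0.856) and CC2D1B (0.847), and in TPC-1 EVI2B (0.952), RNF148 (0.917) and MSL3 (0.900). Apart from IL36B, no gene was named for the same member over both sets of arrays.

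Monocytes and macrophages are known sources of SERPINB2, so their markers are given beside its rise. Of 7 such markers, 5 were dim in depleted TPC-1 wells at 72 h and 6 in the TPC-1 siNT wells at that time. The marker dim in the siNT wells only was CD68, with a mean of 5.72 in depleted and 5.20 in siNT wells. Its depleted wells (5.61 to 5.95) lay within the range of its siNT wells (3.83 to 6.03). CD14, dim in both groups, was lower in the depleted wells (4.23 to 4.44) than in the siNT wells (4.72 to 5.00), without overlap. The summed log2 level over the 7 ran from 30.3 to 31.2 in the depleted wells, against 29.2 to 31.8 in the siNT wells. The 2 ranges overlapped. The summed level of the 5 epithelial markers found, of 6 listed, ran from 28.0 to 29.1 in depleted TPC-1 wells at 72 h, against 29.5 to 31.2 with siNT, and that of 6 fibroblast markers from 37.8 to 38.3, against 39.5 to 40.2. Neither pair of ranges overlapped, and the part of these shifts in the results above was not tested. Of the fibroblast markers PDGFRB, a growth factor receptor, fell, with a mean of 6.32 in depleted wells and 7.82 in control wells (log2, 3 wells each, limma adjusted p = 6.06e-05), and the other 5 were not called. LUM averaged 11.6 in TPC-1 and 6.94 in Nthy-ori 3-1, whereas COL1A1 averaged 6.06 in TPC-1 and 11.1 in Nthy-ori 3-1. All 5 endothelial markers were dim on average in both lines.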

How the data were processed

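The assay used 24 Affymetrix whole-transcript arrays, 3 wells in each of 8 groups of line, siRNA and time. The deposited values are log2 expression per gene; the submitters' processing notes name RMA, which corrects background, normalises arrays to one distribution and summarises probes, and compresses changes of dim genes. Not given in the sources used here are chip type, software version and genome build. The table had 18637 rows; 28 symbols turned into numbers were kept under Ensembl identifiers, and 5 second rows of a symbol were dropped. Of 18604 symbols, 17554 matched the RefSeq gene table of GRCh38.p14, the 5 genes included.

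All 24 arrays entered one limma model (version 3.58.1, under R 4.3.3) that gives each group its own mean, followed by contrasts and eBayes, two-sided, with Benjamini-Hochberg adjustment over 18632 genes in each contrast; ± is the standard error. The number of arrays limits the precision. The fit was tested on simulated data. Promoter windows and motifs came from the RefSeq promoter table. The members and lists were chosen with earlier results of these data known. Named beside the 5 genes are COPZ1, list genes called in a comparison, up to 4 per role by smallest adjusted p, and the genes most correlated with each member; a few genes that these rules or lists would include are not reported here.

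The labels number arrays 1 to 3. Deviations of same-numbered siCOPZ1 and siNT arrays correlated at 0.404, 0.292 and 0.145 in TPC-1 at 48 h, where every pair was above 0.1. The values were 0.163, 0.160 and 0.041 in TPC-1 at 72 h. In Nthy-ori 3-1 they were 0.221, 0.234 and 0.072 at 48 h and 0.163, 0.158 and 0.028 at 72 h, so same-numbered arrays correlated positively throughout. Alternatives were median centring, leaving out the dim genes (the lower 33.3% by mean level), an intensity trend with robust prior, array weights, the replicate number as a block, smaller sets of arrays, leaving out each well and leaving out the arrays numbered 1.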

Additional observations from a re-analysis of the deposited data

Results flagged for a closer look

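The effect of siCOPZ1 at 72 h on ITGB3 differed between the lines by a test of the difference itself. The difference of effects, TPC-1 minus Nthy-ori 3-1, was -1.12 ± 0.28 (log2, SE, limma adjusted p = 0.0258), from an effect of -1.31 in TPC-1 and -0.19 in Nthy-ori 3-1. The ITGB3 call was lost in 7 of 12 runs without 1 well: siNT well 1 or 3 or siCOPZ1 well 2 or 3 of Nthy-ori 3-1, and siNT well 3 or siCOPZ1 well 1 or 2 of TPC-1. In the 12 runs it lay between -1.21 and -1.02 (adjusted p between 0.0304 and 0.0680), and without all arrays numbered 1 it was -1.02 (adjusted p = 0.158).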

How the results depend on the processing

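The 2 called values of the 5 genes, PLAU and PLAT between the lines, kept direction and call in all alternatives. Of the values of the 5 genes, 872 counted as unchanged. For comparisons with a test, that meant the same direction and call, and 34 such values turned sign, none of them called. For comparisons described without a test, it meant a shift below the residual SD of the gene, whatever the sign. Such a value could therefore turn sign and still count as unchanged. For example, SERPINE2 from 48 h to 72 h in TPC-1 with siNT ran from -0.22 to 0.091 without 1 well. In TPC-1 at 48 h SERPINE2 was -0.13 with array weights and -0.081 without the arrays numbered 1, and -0.15 to 0.16 without 1 well. In Nthy-ori 3-1 at 48 h, PLAU was 0.020 with array weights; without 1 well SERPINE2 ran from -0.22 to 0.39, PLAU from -0.086 to 0.066 and PLAUR from -0.34 to 0.0075. At 72 h there, without the arrays numbered 1, SERPINB2 was 0.23 and PLAU 0.049, and PLAUR was 0.024 with array weights; without 1 well they ran from -0.79 to 0.077, -0.099 to 0.091 and -0.18 to 0.21. The line difference at 48 h without the arrays numbered 1 was 0.25 for SERPINB2 and -0.61 for SERPINE2 (-0.32 with array weights); without 1 well SERPINB2 ran from -0.59 to 0.48, SERPINE2 from -0.38 to 0.23 and PLAT from -0.049 to 0.34. With siNT at 48 h the line difference of SERPINE2 was called with array weights (0.73) and without the arrays numbered 1 (0.85), and that of PLAUR ran from 0.25 to 0.59 without 1 well. From 48 h to 72 h in Nthy-ori 3-1 with siNT, PLAUR was called with array weights (-0.83) and with the replicate block (-0.78); without 1 well it ran from -0.9998 to -0.59, SERPINB2 from -0.82 to 0.048 and PLAU from -0.10 to 0.025. In depleted TPC-1 the time difference was 0.28 for PLAU without the arrays numbered 1 and 0.33 to 0.70 for PLAT without 1 well, and the time difference of the effect on PLAT ran from 0.17 to 0.56. The pathway list had 0 genes called higher in limma without the arrays numbered 1, with only the 6 arrays compared and with the 12 of the line, and 2 with median centring, without the dim genes, with the trend and robust prior, with array weights and with the replicate block. It had 1 called lower with the 6 or 12 arrays and 4 with array weights or the replicate block. Without 1 well it had 0 to 2 higher and 1 to 4 lower. The clade B list had 1 higher without the dim genes and 1 lower with the replicate block, and 0 to 1 lower without 1 well. The replicate block changed no other call of the 5 genes. Counts over all genes in TPC-1 ranged from 1 to 66 at 48 h, against 31, and from 1507 to 3474 at 72 h, against 2692. They ranged from 442 to 1300 for the line difference at 72 h, against 749, and from 3345 to 6454 for the lines with siNT at 48 h, against 5121, and from 0 to 7 for the line difference at 48 h, against 0. In Nthy-ori 3-1 they ranged from 0 to 1 at 72 h and from 0 to 3 at 48 h, and from 0 to 120 between the times with siNT, against 0. The cause was not tested in any of these. Small differences of genes under or near the limit for dim genes, such as SERPINB2 outside depleted TPC-1 at 72 h, are limited by signal over background.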
